A study of Mus musculus with 10 samples.

Results

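The cytosolic ribosomal protein genes encode the proteins of the small and large subunits of the ribosome that translates nuclear mRNAs. They were chosen by name, as protein-coding mouse genes whose symbols are Rps or Rpl followed by a number (with an optional a or x), Rplp0 to Rplp2, and Rpsa, and 76 of the 53379 genes counted met that rule. The set held 30 genes of the small subunit and 46 genes of the large subunit, and 296 annotated pseudogenes of these genes were left out. The naming rule also misses genes such as Rps3a1 and Fau, which encode ribosomal proteins under other names and are described apart.

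A ribosome carries nearly every ribosomal protein in equal number, so a cell makes these proteins in matched amounts, and growing and dividing cells spend much of their transcription and translation on them. Many of their mRNAs begin with a 5′ terminal oligopyrimidine (TOP) tract, a C followed by a run of pyrimidines, through which mTORC1 and the RNA-binding protein LARP1 control their translation, and LARP1 also binds and stabilises them. Free RPL5 and RPL11, which form the 5S ribonucleoprotein particle with 5S rRNA, bind MDM2 and stabilise p53 when ribosome assembly fails. Cdkn1c encodes p57KIP2, a maternally expressed inhibitor of cyclin-dependent kinases, and the comparison asks whether its loss in the cortex went with another level of these mRNAs.

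RNA-seq was performed on 400 FACS-purified cells of the Emx1+ lineage from each of 10 cortices at embryonic day 16, 1 embryo for each library. The 7 control embryos were MADM-7 GT/TG;Emx1 Cre/+ and the 3 cKO embryos, cKO-Cdkn1c-MADM-7, had a deleted Cdkn1c allele on both MADM-7 chromosomes (MADM-7 GT,Cdkn1c/TG,Cdkn1c) beside Emx1 Cre/+, so that both groups carried the chromosome 7 MADM cassettes and Emx1-Cre, in a mixed C57BL/6J and CD1 background. Emx1-Cre acts in the dorsal telencephalic lineage, so the deletion is limited to these cells while the rest of the embryo keeps the gene, and cells of all MADM colours were pooled in the sort. Libraries were made with Smart-Seq2, which copies whole polyadenylated mRNAs and carries no molecular identifiers, so reads are not independent molecules.

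Between 1738220 and 3362487 reads fell on genes in each library. Cdkn1c had 10 to 32 reads in cKO libraries and 116 to 369 in control libraries (log2 fold change -3.66, SE 0.31, edgeR adjusted p = 3.7e-06), which matched the labels. Reads outside genes made up 8.64% to 15.5% of the uniquely aligned reads in cKO and 5.47% to 16.7% in controls. A list of 12 neuronal markers summed to 7862 to 9140 CPM (counts per 1000000 reads on genes) in cKO and 10252 to 13186 CPM in controls. It joined projection neuron factors with the general neuronal genes Tubb3, Stmn2, Dcx and Map2, so the sum does not single out the Emx1 lineage. Tubb3 averaged 2967 CPM in cKO and 4495 CPM in controls and was not called. Of the 12 markers, 3 were lower in cKO, Neurod6 and Neurod2 among them, and none was higher. Markers of dividing cells summed to 665 to 1685 CPM in cKO against 407 to 886 CPM in controls, with 5 of 8 higher in cKO, and Cajal-Retzius cell markers summed to 560 to 638 CPM against 15.96 to 163 CPM, with 5 of 5 tested higher. In bulk libraries of this kind, fewer cells of a type and less RNA per cell cannot be told apart.

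The share of reads on ribosomal protein genes in cKO libraries lay within the range of the control libraries. These genes took 4.50%, 4.56% and 4.37% of the reads on genes in cKO 1, 2 and 3. In the 7 control libraries the share was 3.26% at the lowest (control 3), 3.95% at the median and 4.69% at the highest (control 6). Controls 1, 5 and 6 stood with the cKO libraries and the other 4 controls below them, and the cKO mean was 4.48% ± 0.10 (SD, n = 3), while the controls averaged 4.08% ± 0.49 (SD, n = 7). The small subunit took 1.96% ± 0.05 in cKO and 1.79% ± 0.21 in controls, and the large subunit 2.51% ± 0.05 and 2.29% ± 0.28. The ratio of large to small subunit reads lay between 1.26 and 1.30 in all 10 libraries.

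**Figure D1:**
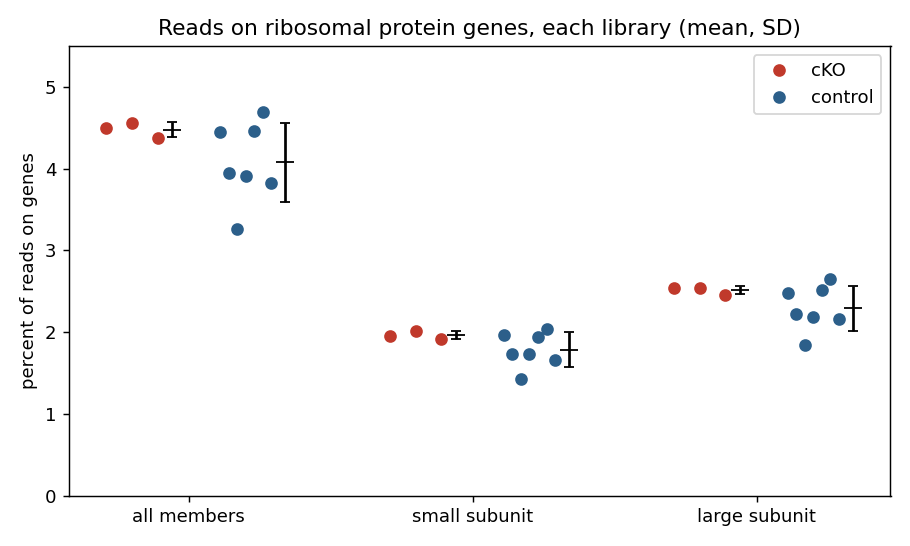
Percent of the reads on genes that fell on ribosomal protein genes (vertical axis), for all 76 genes and for the genes of each subunit; each point is a library (3 cKO, red; 7 control, blue), with the mean and SD beside it. The cKO libraries sit between 4.37% and 4.56% for all genes, inside the control range of 3.26% to 4.69%.

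The genes moved together from library to library. Control 3 held the lowest CPM for 68 of the 75 genes tested, and control 6 the highest for 29. Over the 75 genes the median of the log2 difference from the control mean was -0.39 in control 3 and 0.22 in control 6, while in cKO 1, 2 and 3 it was 0.15, 0.14 and 0.13. Controls 1 and 5, at 0.15 and 0.14, stood as high as the cKO libraries, and controls 2, 4 and 7 stood at -0.06, -0.09 and -0.07. The same median over all genes tested ran from -0.03 to -0.00053 in the 10 libraries. The median coefficient of variation of a ribosomal protein gene among the controls was 15.6% in CPM and 7.29% as a share of the ribosomal protein reads, and 70 of the 75 genes varied less on the second scale.

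**Figure D2:**
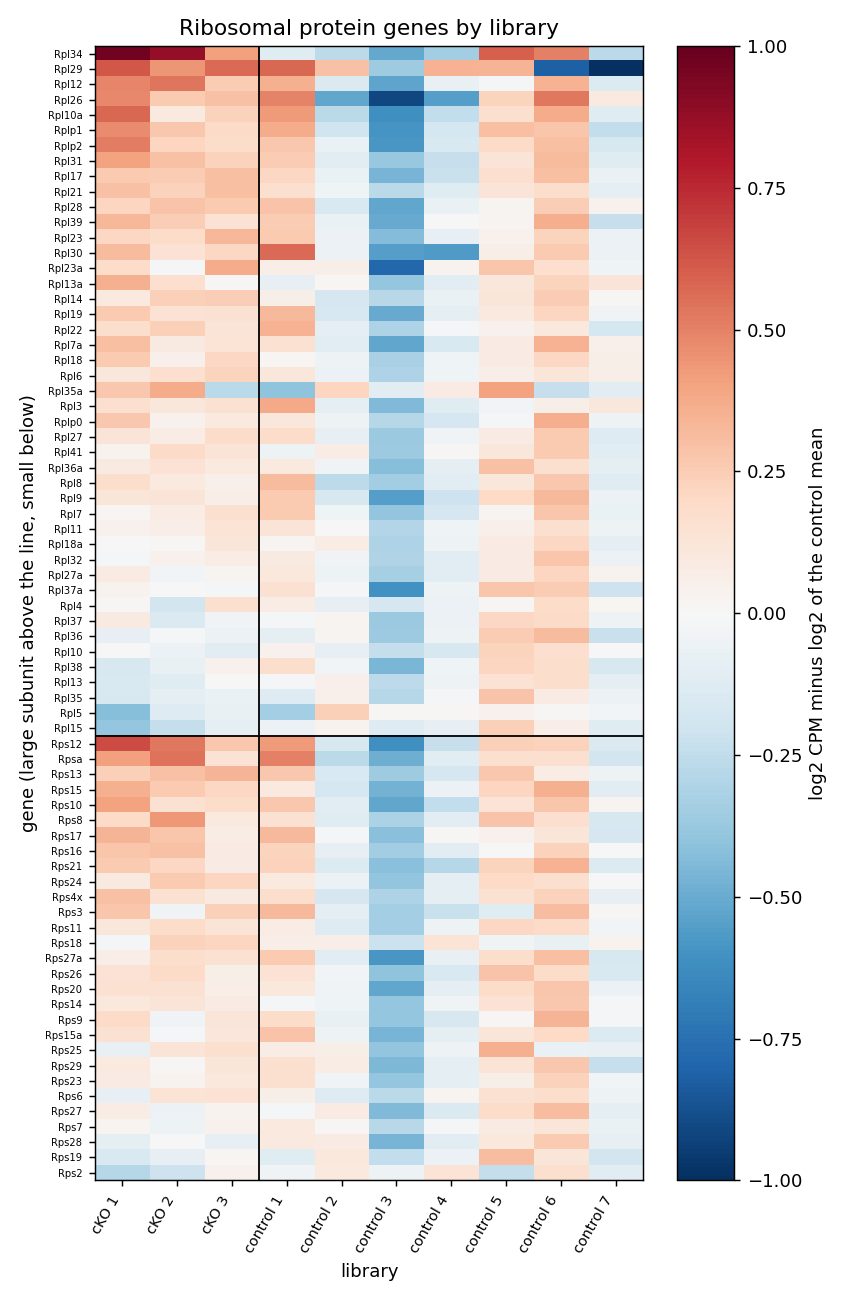
Each row is 1 of 74 ribosomal protein genes, each column 1 library; the colour gives log2 CPM minus log2 of the gene's control mean, limited to 1 either way, with the large subunit above the horizontal line and cKO libraries left of the vertical line. The column of control 3 is below the control mean in nearly every row, and the column of control 6 is above it in most.

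No ribosomal protein gene passed the test between genotypes. Of the 76 genes, 75 had a mean of at least 10 reads and were tested with edgeR's quasi-likelihood test beside all 11551 genes above that level, and 0 were called higher and 0 lower at an adjusted p under 0.05, while over all genes 2.27% were called higher and 0.883% lower. DESeq2 called 1 of the 75 higher (Rpl34, 1.33%) and 0 lower, where over all genes it called 2.6% higher and 1.82% lower. At an unadjusted p under 0.05, 5 genes were higher in cKO (6.67%, against 9.25% of all genes tested) and 0 were lower (against 7.11%). All 3 cKO libraries lay above all 7 controls for 1 gene, Rpl21 (1.33%, against 3.32% of all genes), and below them for 0 (against 2.68%). The count of 5 moved with the libraries and the settings. Without control 1 it was 12 (16% of the 75 genes, against 8.65% of all genes), and without control 6 it was 9 (12%, against 8.81%). Without control 2, 3, 4 or 7 it was 3 (4%, against 8.11% to 8.97%). It was 2 without cKO 2 (2.67%, against 9.66%) and 1 without cKO 1 (1.33%, against 8.61%). With a covariate for the percent of reads outside genes it was 17 (22.7%, against 9.42% of all genes), and the share of ribosomal protein genes past this line therefore lay below or above that of all genes depending on the setting.

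The fold changes were small and leaned upward. Of the 75 genes, 64 had a log2 fold change above 0 and 11 below, with a median of 0.14, where 5921 of all 11551 genes (51.3%) were above 0 and the median was 0.01. The range was -0.23 (Rpl15) to 0.78 (Rpl34), 58 genes were within 0.25 of 0, 17 were higher by more than that and 0 were lower by more than that. These values are not independent of each other, because the genes moved together between libraries, and without control 3, the library lowest in ribosomal protein reads, the median was 0.09 and 57 of 75 were above 0. The median was above 0 under all 22 alternatives, and with offsets for length and GC content it was 0.08, with 54 of 75 above 0 and a median of -0.05 over all genes.

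The intervals were narrow. Standard errors on the log2 scale had a median of 0.14, against 0.27 over all genes tested, and the genes were read at a mean of 105.8 to 4704 reads per library. For 75 of 75 genes the 95% interval of the fold change lay above a 1.5-fold fall, for 58 it lay within 1.5-fold either way, and for 73 within 2-fold either way. The subunits did not separate: the median log2 fold change was 0.13 over 30 small subunit genes (27 above 0) and 0.16 over 45 large subunit genes (37 above 0).

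**Figure D3:**
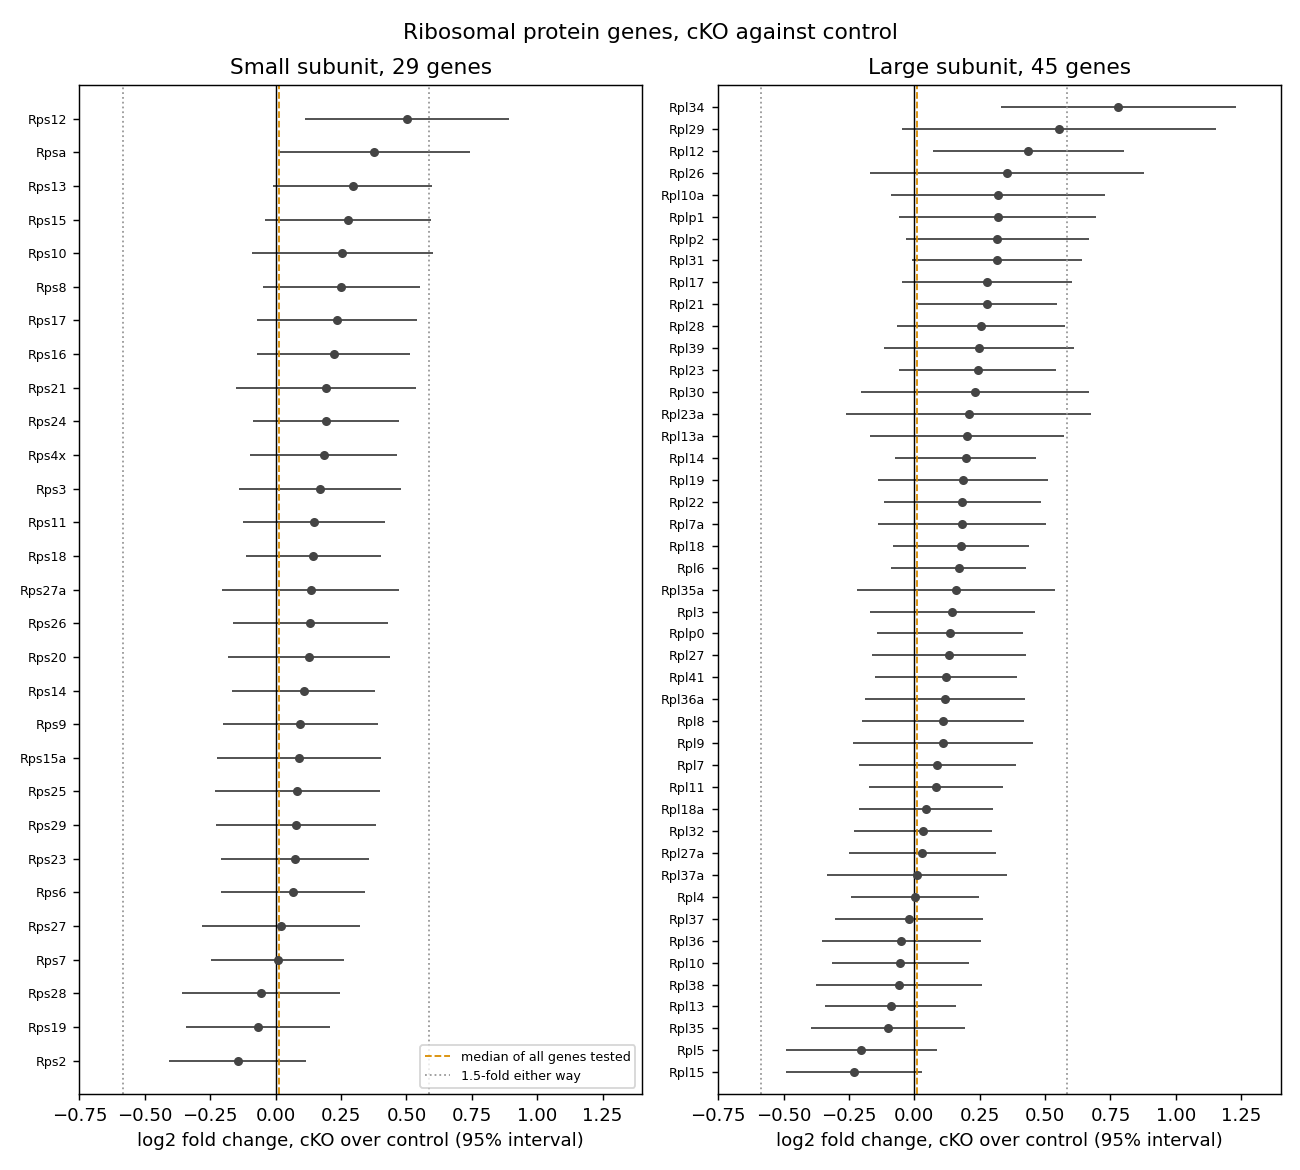
Log2 fold change of cKO over control (horizontal axis) with its 95% interval for 29 small and 45 large subunit genes; the dashed line is the median of all genes tested (0.01) and dotted lines mark 1.5-fold either way. No interval reaches the left dotted line, and Rpl34, at 0.78, lies furthest right.

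A pyrimidine run of the TOP kind lay within 10 bases of a RefSeq start in 34 of the 56 genes with a start in the table, and the 30-base windows of 7 genes are printed to show such a run and its absence. The windows run from 10 bases before the RefSeq start to 20 bases from it (build GRCm38.p6), in the direction of transcription, with the longest run that begins with C and holds only C and T in capitals, where the run starts within 10 bases of the start; for a gene with several starts the one with the longest run is shown. Rpl34 (chr3:130730318-130730347, minus strand), Rps12 (chr10:23787190-23787219, minus) and Rpl12 (chr2:32961702-32961731, plus) had the smallest p among the genes with positive fold changes, Rpl15 (chr14:18270967-18270996, minus) and Rpl5 (chr5:107900518-107900547, plus) the smallest among those with negative ones, Rps27 (chr3:90213629-90213658, minus) had the highest level, and Rplp2 (chr7:141447641-141447670, plus) lies nearest Cdkn1c.
Rpl34: CTTTTCCTCTTCCggggacggtgctcagag
Rps12: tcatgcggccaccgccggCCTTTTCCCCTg
Rpl12: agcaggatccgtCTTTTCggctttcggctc
Rpl15: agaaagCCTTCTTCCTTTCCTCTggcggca
Rpl5: cgtcgCTTgcgtgctggtggtgctacatac
Rps27: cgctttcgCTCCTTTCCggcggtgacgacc
Rplp2: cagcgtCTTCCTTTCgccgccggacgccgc

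Runs of 5 or more were present in 6 of these 7 windows and absent in that of Rpl5, so the windows of Rpl34, with the largest positive fold change, and Rpl15, with the largest negative one, both hold one. Exactly at the start, a C followed by 4 or more pyrimidines stood in the windows of Rpl15, Rps27 and Rplp2, and not in those of Rpl34, Rps12 and Rpl12. The 56 genes in the RefSeq table, of 76, had 66 starts in all. A C followed by 4 or more pyrimidines lay exactly at the annotated start in 13 of the 66 starts (19.7%), against 2.51% of all 32851 starts, and began within 10 bases of the start in 36 (54.5%), against 30.7%. A run of 8 or more began there in 23 (34.8%), against 8.11%. Only the transcribed strand was searched, annotated starts can be off by some bases, and a run is a match of letters and no measured start.

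Rpl34, a protein of the large subunit, had the largest fold change of the set. Its gene lies at chr3:130726831-130730398 on the minus strand (GRCm38). It was at 742, 697 and 506 CPM in cKO 1, 2 and 3, and in controls at 266 CPM (lowest), 317 CPM (median) and 574 CPM (highest). The groups overlapped: cKO 3 lay below controls 5 and 6, at 574 and 540 CPM, while the other 5 controls lay between 266 and 349 CPM. The log2 fold change was 0.78 (SE 0.21, 95% interval 0.33 to 1.23, edgeR adjusted p = 0.056), just short of the threshold. As a share of the ribosomal protein reads, Rpl34 took 1.65%, 1.59% and 1.14% in cKO, 1.28% and 1.13% in controls 5 and 6, and 0.773% to 0.831% in the other controls, so these differences remained beside the other genes of the set. With control 5 left out the adjusted p was 0.019, and with control 6 left out it was 0.021; over the 22 alternatives it ran from 1.7e-05 (no filter on low counts) to 0.57, and 6 of them called it higher in cKO.

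The 4 next genes by p among those with positive fold changes did not pass the threshold. Rps12, a small subunit protein that has been tied to cell competition in flies, was at 319, 293 and 245 CPM in cKO and at 132, 184 and 272 CPM (lowest, median and highest) in controls, a log2 fold change of 0.50 (SE 0.19, adjusted p = 0.17). Rpl12, which sits at the base of the P stalk, was at 227, 234 and 192 CPM in cKO and at 112, 153 and 207 CPM in controls (log2 fold change 0.44, SE 0.17, adjusted p = 0.21). For both genes control 1, the highest control, lay above cKO 3. Rpsa, the laminin receptor homologue of the small subunit, was at 677, 740 and 562 CPM in cKO and at 363, 472 and 720 CPM in controls (log2 fold change 0.38, SE 0.17, adjusted p = 0.29).

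Rpl21 was the gene whose groups did not overlap. It was at 421, 403 and 423 CPM in cKO and at 286, 334 and 388 CPM in controls, a log2 fold change of 0.28 (SE 0.13, adjusted p = 0.29). The gap between the lowest cKO and the highest control library was small beside the spread of the controls, and 3.32% of all genes tested showed such a separation.

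The genes with the smallest p among negative fold changes were Rpl15, Rpl5, Rps2, Rpl13 and Rpl35. Rpl15, a large subunit protein, was at 537, 596 and 659 CPM in cKO and at 641, 673 and 829.1 CPM in controls (log2 fold change -0.23, SE 0.12, adjusted p = 0.37), so that cKO 1 and 2 lay below all controls and cKO 3 within their range. Rps2, at the mRNA entry site of the small subunit, was at 780, 824 and 981 CPM in cKO and at 809, 929 and 1063 CPM in controls (log2 fold change -0.15, SE 0.12, adjusted p = 0.63). Rpl13 and Rpl35 differed by -0.09 (SE 0.12) and -0.10 (SE 0.14) on the log2 scale, with adjusted p of 0.78 and 0.79, and their 3 cKO libraries lay within the range of the controls.

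**Figure D4:**
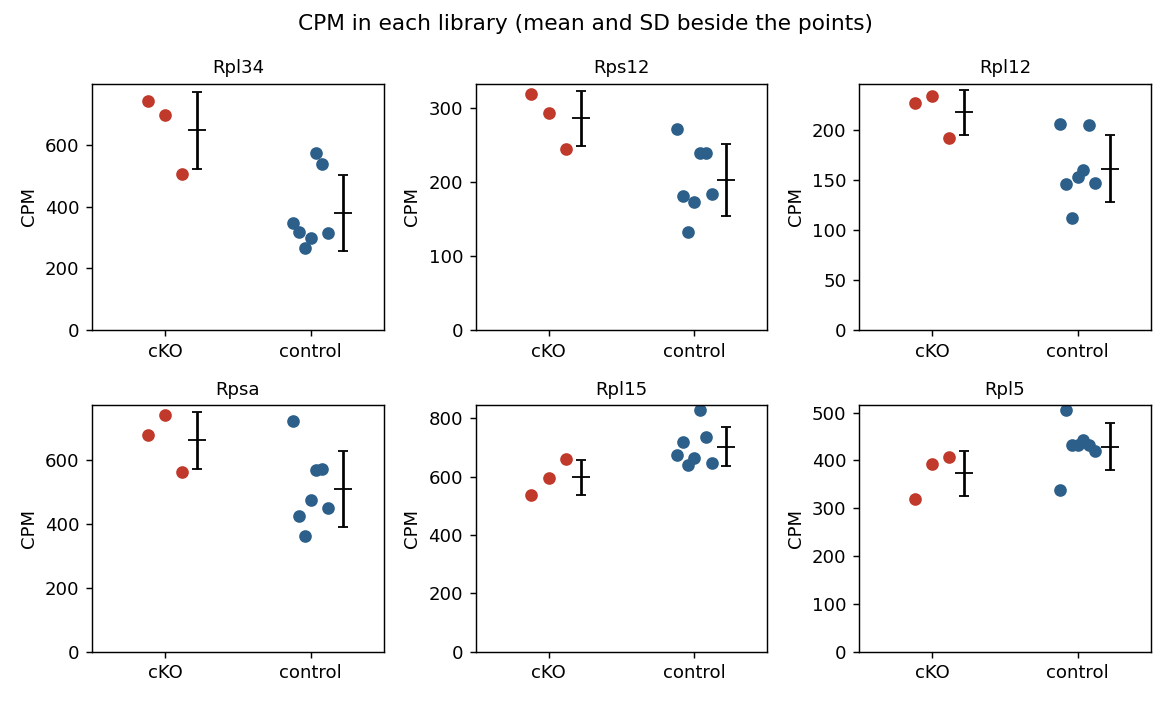
CPM (vertical axis, from 0) in each cKO (red) and control (blue) library for 6 genes, with mean and SD at the side. Rpl34 reaches 742 CPM in cKO 1 against a control median of 317 CPM, with controls 5 and 6 above cKO 3, and Rpl15 reaches down to 537 CPM in cKO 1 against a control median of 673 CPM.

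The P stalk recruits the GTPase factors of translation, and none of its genes passed the test. Rplp0, Rplp1, Rplp2 and Rpl12 had a median log2 fold change of 0.32 (range 0.14 to 0.44), with 4 of 4 above 0, where 64 of the 75 genes of the set (85.3%) were. Rplp0, the core of the stalk, was at 2009, 1718 and 1784 CPM in cKO and at 1369, 1618 and 2149 CPM in controls (log2 fold change 0.14, SE 0.13, adjusted p = 0.68). Rplp1 was at 973, 842 and 797 CPM in cKO and at 464, 621 and 905 CPM in controls (log2 fold change 0.32, SE 0.18, adjusted p = 0.40). Rplp2 was at 845, 688 and 672 CPM in cKO and at 395, 564 and 730 CPM in controls (log2 fold change 0.32, SE 0.17, adjusted p = 0.36). In each of these genes at least 1 control lay above the lowest cKO library.

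Neither gene of the 5S particle passed the test. Rpl5 was at 320, 391.8 and 408 CPM in cKO and at 338, 432 and 506 CPM in controls (log2 fold change -0.20, SE 0.14, 95% interval -0.49 to 0.09, adjusted p = 0.51). Rpl11 was at 595, 607 and 634 CPM in cKO and at 471, 578 and 648 CPM in controls (log2 fold change 0.08, SE 0.12, 95% interval -0.17 to 0.34, adjusted p = 0.81). The groups overlapped in both.

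The other functional groups gave no calls either. The 9 genes at the rim of the peptide exit tunnel had a median log2 fold change of 0.21 (range -0.10 to 0.35), the 6 genes along the mRNA path 0.11 (range -0.15 to 0.17) and the 3 genes of the decoding region 0.14 (range 0.07 to 0.28). A list of 10 of the genes whose human counterparts are mutated in Diamond-Blackfan anaemia, which leaves out others such as Rpl15, had a median of 0.15 (range -0.20 to 0.35). In each of these groups 0 genes passed the test.

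Chromosome 7, which carries the MADM cassettes and Cdkn1c, holds 14 of the 76 genes, the most of any chromosome. Their median log2 fold change was 0.17, with 13 of 14 above 0 and 0 called, against 0.13 over the 61 tested genes on other chromosomes and 0.04 over the 874 tested genes of chromosome 7. Rplp2, at chr7:141447370-141451585, lies nearest to Cdkn1c (chr7:143458339-143461050), 2006754 bases away. The 4 genes on the X chromosome (Rpl39, Rpl10, Rps4x and Rpl36a) had a median of 0.15 and a range of -0.05 to 0.25.

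The measured mRNA levels spanned 36.4-fold among the 75 genes tested. This span also depends on the counting and on the transcript length taken, so it is not set against the nearly equal numbers of the proteins. For Rpl13a and Rpl23a, at its low end, overlaps with other genes described below can lower the count. Levels are given as CPM per kilobase of the shortest protein-coding transcript in the consensus coding set. The highest control levels were those of Rps27 at 2112 ± 346 (SD, n = 7), Rpl41 at 2088 ± 276 and Rpl32 at 1960 ± 245 CPM per kilobase. The lowest were those of Rpl13a at 58.1 ± 7.8, Rpl23a at 67.4 ± 13.5 and Rpl12 at 130 ± 27 CPM per kilobase. The middle gene stood at 644 CPM per kilobase, and the 25th and 75th percentiles were 397 and 992. Of the 74 neighbours in this order, 72 had overlapping ranges of mean and SD, so single ranks are not resolved.

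The order was nearly the same in cKO. Across the 75 genes the Spearman correlation of the mean levels per kilobase in cKO and control was 0.987, a description across genes that are not independent replicates, and no gene moved by more than 13 ranks. Rpl34 stood at 792 ± 258 CPM per kilobase (SD, n = 7) in controls and at 1351 ± 262 (SD, n = 3) in cKO. Taking the longest coding transcript changed the length of 36 genes and single ranks by up to 42.

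**Figure D5:**
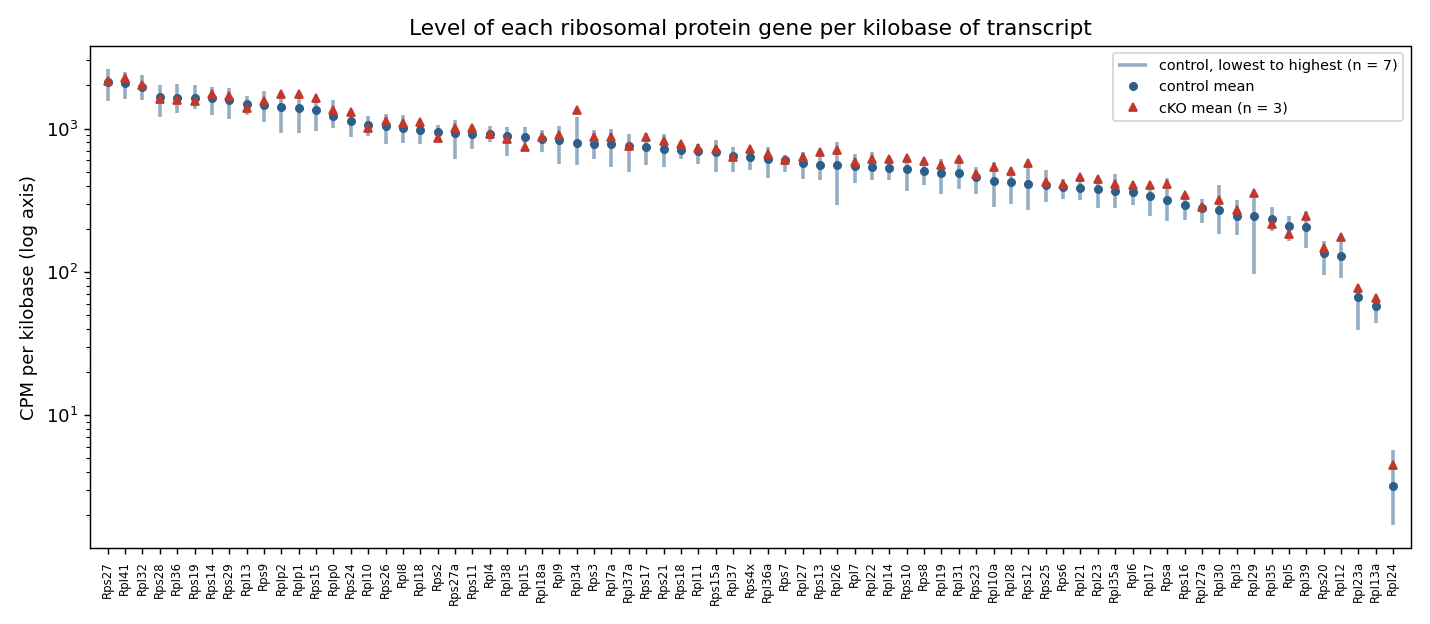
Level of 75 of the genes in CPM per kilobase of transcript (log axis), ordered by the control mean: blue points and lines give the mean and the lowest to highest of 7 controls, red triangles the mean of 3 cKO libraries. Levels fall from 2112 (Rps27) to 58.1 (Rpl13a) among the genes tested, and Rpl24 lies far below at 3.2. On the log axis cKO and control means lie furthest apart for Rpl34 (1351 and 792). They also lie apart for genes such as Rpl29 (355 and 244) and Rps12 (579 and 411).

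The counts depend on copies of these genes elsewhere in the genome, since the authors kept uniquely aligned reads only. Of the 50-base windows along the chosen transcripts, a median of 61.7% per gene also occurred in an annotated transcript of another gene, and for 51 of the 76 genes it was more than 50%. Such windows made up 98.6% of those of Rps27, 93.8% of those of Rpl5 and 85.7% of those of Rpl23a. Reads assigned to the 296 pseudogenes took 0.03% to 0.06% of the reads on genes in each library. The 6 genes with under 20% of shared windows had a median log2 fold change of 0.12, and the other 69 had 0.15, and the Spearman correlation of the shared percent with the control level over the 75 genes was -0.16. Absolute levels of single genes are therefore uncertain, and the same filter was applied to all 10 libraries.

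Rpl24, a large subunit protein, was the gene not tested. It had 3, 11 and 9 reads in cKO and 2 to 11 reads in controls. Its gene (chr16:55966275-55971435) overlaps the annotated transcript Gm28037 on the same strand (chr16:55966343-55980721), which had 0 reads in all libraries, and reads that fit both are not assigned to either by the counting used. Rpl13a, the lowest gene tested, likewise overlaps a same-strand gene, Gm45713 (chr7:45125922-45136231, 0 reads). At 61.4 to 77.9 CPM in cKO and 46.4 to 71.0 CPM in controls it differed by 0.20 on the log2 scale (SE 0.18, adjusted p = 0.64). For Rpl23a the sum of the counts on each strand was 4.09 times the unstranded count, and its log2 fold change was 0.21 (SE 0.22). Of the 76 genes, 44 overlap another annotated gene and 32 overlap one on the same strand, most of them small nucleolar RNAs in their introns.

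The 4 ribosomal protein genes listed outside the naming rule, paralogs aside, gave no calls. Rps3a1 (log2 fold change 0.04, SE 0.14) and Fau (0.09, SE 0.16), which encodes the small subunit protein RPS30 fused to a ubiquitin-like protein, had adjusted p of 0.92 and 0.83. Rack1, a scaffold on the small subunit, differed by 0.11 (SE 0.13, adjusted p = 0.76).

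One paralog did differ. Rps27l, a close relative of Rps27 and a known p53 target, was at 194 to 291 CPM in cKO and at 129, 158 and 188 CPM (lowest, median and highest) in controls, so that the groups did not overlap (log2 fold change 0.63, SE 0.15, edgeR adjusted p = 0.027). Rps27 itself was at 768, 698 and 748 CPM in cKO and at 536, 721 and 902 CPM in controls (log2 fold change 0.02, SE 0.14). The difference between the fold changes of Rps27l and Rps27 was not tested. Rps27l passed the test under 13 of the 23 settings tried. In those with the replicate number as a block, cKO 1 to 3 are in effect compared with controls 1 to 3, since numbers 4 to 7 occur only in controls. The call was lost with length and GC offsets (log2 fold change 0.46, adjusted p = 0.076), with the replicate number as a block (0.76, adjusted p = 0.16) and with both (0.53, adjusted p = 0.36). It was also lost within the libraries over 10% of reads outside genes (0.52, adjusted p = 0.47). Within those under 10%, with 1 cKO library, the log2 fold change of Rps27l was 0.85. With 1 library left out it was lost in 5 fits, and the adjusted p was 0.065 without cKO 2, 0.14 without cKO 3, 0.052 without control 1, 0.061 without control 2 and 0.052 without control 4. Rpl22l1, the paralog that Rpl22 represses, differed by 0.16 (SE 0.19, adjusted p = 0.73), and of the 6 paralogs tested 1 was called.

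The other genes of the translation machinery gave no calls in edgeR, and DESeq2 called 1 of them, Eif5. Of 16 further mRNAs with a TOP tract, such as those of elongation factors, 0 were called, with a median log2 fold change of 0.09, and Eef1d, an exchange factor of elongation, had the smallest p (0.43, SE 0.16, adjusted p = 0.17). Of 32 initiation factor genes 0 were called, with a median of -0.11, and Eif5, which stimulates GTP hydrolysis at the start codon, had the smallest p (-0.42, SE 0.13, adjusted p = 0.10). DESeq2 gave Eif5 an adjusted p of 0.036, and of the 23 settings tried this was the 1 that called it. Of 47 genes of ribosome assembly and rRNA synthesis 0 were called, with a median of 0.0043, and Rrn3, which brings RNA polymerase I to its promoter, had the smallest p (-0.46, SE 0.17, adjusted p = 0.18). Of 77 tested genes of the mitochondrial ribosome, a separate machine, 0 were called and the median was 0.07.

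Marker RNAs of several cell types also differed between the groups, and these values stand beside the fold changes above. Among the called markers were Neurod6 (log2 fold change -0.98) and Neurod2 (-0.75) of projection neurons, Ube2c (1.35), Ccnb1 (1.20) and Cdk1 (1.05) of dividing cells, Reln (2.71), Lhx1 (3.68) and Trp73 (2.69) of Cajal-Retzius cells, and Dlx2 (1.63) as 1 of 7 interneuron markers tested; DESeq2 did not call Trp73 (adjusted p = 0.081). With the replicate number as a block Neurod2 (adjusted p = 0.098), Cdk1 (0.12) and Dlx2 (0.44) were not called, and Ccnb1 and Dlx2 each lost their call in 7 of the 10 fits with 1 library left out. Within the libraries over 10% of reads outside genes Neurod6 and Reln were called and the others of these were not, while within those under 10%, with 1 cKO library, Neurod2, Lhx1 and Trp73 were called and Neurod6 (adjusted p = 0.13), Reln (0.077) and the others were not. Of 10 radial glial markers (7 above 0, median 0.18, Emx2 0.91, SE 0.28) 0 passed. Of 5 intermediate progenitor markers, 3 above 0 with a median of 0.18, 0 passed, and those with the smallest p were Neurog2 (-0.68, SE 0.24) and Btg2 (0.58, SE 0.22). Emx2 and Neurog2 were called with no filter on low counts. Red blood cell markers summed to 19.9 to 2284 CPM in cKO and 0.70 to 1801 CPM in controls, and 0 of 5 tested passed. Hba-a2 was called lower in cKO in 3 of 22 settings, the replicate block among them, while the other 4 had positive fold changes. Microglial markers summed to 1.63 to 36.0 CPM in cKO and 0 to 6.54 CPM in controls, and endothelial markers to 0.33 to 19.1 CPM and 0 to 2.88 CPM. Cortical hem and choroid plexus markers summed to 9.36 to 57.9 CPM in cKO and 0 to 29.3 CPM in controls (Ttr up to 54.3 CPM in cKO, called in 3 of 22 settings but not in the main fit, and Kcne2 at 0 reads in every library). Oligodendrocyte precursor markers summed to 8.14 to 28.0 CPM and 0 to 82.3 CPM. The part of these marker differences in the ribosomal protein values was not tested.

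Among the 5 libraries with over 10% of reads outside genes (2 cKO and 3 control), the ribosomal protein share was 4.53% on average in cKO and 3.88% in controls, and the median log2 fold change was 0.24 with 0 called. Among the 5 with less (1 cKO and 4 control), the share was 4.37% in the cKO library and 4.23% on average in controls, and the median log2 fold change was 0.04. With 1 cKO library in that set, its fit assumes that this library varies like the controls. Control 3 was in the first set. These sets were chosen after the data had been seen.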

How the data were processed

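Counts were deposited by the authors as 1 file per library, made with STAR v2.5.0c on GRCm38 with Gencode gene models, uniquely aligned reads only. The unstranded count column was used here; rows for unaligned, multiply aligned, ambiguous and outside-gene reads were kept out of library sizes (outside genes: 5.47% to 16.7%). Symbols were taken from Gencode M21 (105 of 53379 identifiers did not match). All genes averaging 10 reads or more were tested with edgeR 4.0.16 (TMM factors, quasi-likelihood F-test, genotype alone, Benjamini-Hochberg over all genes, threshold 0.05; R 4.3.3), checked on simulated data; SE is the log2 fold change over the root of F. CPM values use TMM library sizes, while summed list values are per 1000000 reads on genes. Alternatives were DESeq2 1.42.0, other scalings and filters, strand sums, covariates, offsets and each library left out. The genes and lists were chosen with earlier results of these data known. Genes are named as those called, else with the smallest p in each direction, the 3 highest and lowest levels, the stalk and 5S genes, and the gene nearest Cdkn1c. No library pair within a genotype agreed within counting noise (chi-square per degree of freedom at least 4.98). Precision is limited by 3 cKO libraries. Some genes are not reported here by name.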

Additional observations from a re-analysis of the deposited data

Results flagged for a closer look

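Among 65 values checked in the 7 controls, 6 had a library far from the rest, where chance gives about 1 in 20. Rpl23a was at 21.9 CPM in control 3, against 36.7 to 45.6 CPM in the other controls; control 3 was the lowest library for most ribosomal protein genes. Neurod2, a projection neuron factor, was at 456 CPM in control 5, against 515 to 552 CPM. Olig1, an oligodendrocyte lineage factor, was at 70.2 CPM in control 1, against 0 to 9.20 CPM, and the oligodendrocyte precursor list summed to 82.3 CPM there, against 0 to 14.5 CPM. In control 5 the markers of dividing cells summed to 886 CPM, against 407 to 561 CPM, and interneuron markers to 113 CPM, against 16.7 to 44.3 CPM.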

How the results depend on the processing

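The count of ribosomal protein genes called higher was 1 (Rpl34) in place of 0 with DESeq2, with no filter on low counts, with a replicate block and with length and GC offsets plus that block, and 0 to 1 over the leave-one-out fits, where it was 1 without control 5 or control 6. The count called lower was 0 throughout, the median log2 fold change lay between 0.04 and 0.24, and the difference in summed share between 0.27 (without control 3) and 0.50 (without control 6) percentage points around 0.40. The replicate numbers did not pair the samples (correlations of same-numbered libraries 0.046, -0.10 and -0.21), and the block gave a median of 0.23. Numbers 4 to 7 occur only among controls, so in the block fits the genotype difference rests on replicates 1 to 3 of each group. Calls gained or lost there therefore also reflect a smaller set of controls, without controls 5 and 6. Over all genes, 364 calls became 961 with no filter, 209 with 10 reads in every library, 213 with the replicate block, 201 with the block plus offsets, 55 and 67 within the libraries over and under 10% of reads outside genes (the second with 1 cKO library, assumed to vary like the controls), and 271 to 419 with 1 library left out; 262 higher and 102 lower became 299 and 244 with length and GC offsets and 300 and 210 with DESeq2. Ribosomal protein genes higher at an unadjusted p under 0.05 were 5 (6.67%, against 9.25% of all genes). Over the alternatives with more than 1 cKO library they ran from 1 without cKO 1 (1.33%, against 8.61%) to 17 with the covariate (22.7%, against 9.42%). They were 8 with no filter (10.5%, against 7.86%) and 10 within the libraries over 10% (13.3%, against 6.21%). The causes were not tested.

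The sign turned for these named genes. With no filter Rps27 was at -0.000452 and Olig1 at -0.00275; with DESeq2 Olig1 was at -0.00558; with the replicate block Rpl35 was at 0.0141 and Olig1 at -0.844; with offsets Rpl32 was at -0.0665, Rps27 at -0.0763, Rps3a1 at -0.0757 and Olig1 at -0.142; with offsets plus the block Rpl32 was at -0.073, Rps27 at -0.0409, Rps3a1 at -0.0839 and Olig1 at -1.101. Within the libraries under 10%, Rps2 was at 0.00428, Rpl32 at -0.00463, Rps27 at -0.0488, Rpl13a at -0.0714, Rplp0 at -0.0200, Rps3a1 at -0.0332, Fau at -0.0704, Rack1 at -0.0463 and Olig1 at -0.70. With 1 library left out the ranges were -0.0481 to 0.0784 for Rps27, -0.0164 to 0.0846 for Rpl32, -0.0200 to 0.0817 for Rps3a1 and -0.89 to 1.99 for Olig1. Of the other values for named genes, 859 kept side and direction, 51 lost and 17 gained a call. With no filter on low counts Emx2 (0.89), Neurog2 (-0.70), Ttr (2.49) and Hba-a2 (-5.31) gained one. Hba-a2 also gained one with the block (-5.16) and with block and offsets (-5.00). With 1 library left out, Ccnb1 and Dlx2 each lost their call for 7 of the 10 libraries (cKO 2 and 3 and controls 1, 2, 3, 4 and 7 for Ccnb1, 0.87 to 1.23; cKO 1 and 3 and controls 3 to 7 for Dlx2, 1.36 to 1.65), Cdk1 for 6 (cKO 2 and 3 and controls 2, 3, 4 and 7, 0.59 to 1.11) and Ube2c without cKO 2 (1.03), while with the block Neurod2 (-0.78), Cdk1 (1.01) and Dlx2 (1.06) lost theirs, as did Cdk1 (1.03) and Dlx2 (0.94) with block and offsets; Ttr gained one without cKO 2 (3.01) or control 2 (3.42), Neurog2 without control 1 (-0.80) and Rrn3 without cKO 2 (-0.70).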

Other observations

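Rpl29 and Rpl26 varied more among the controls than the other ribosomal protein genes tested; both were picked after their values had been seen. Rpl29 was at 80.6 CPM in control 6 and 56.4 CPM in control 7, against 111 to 212 CPM in the other 5 controls and 193 to 218 CPM in cKO, and its coefficient of variation among controls was 41.5%, where the median gene had 15.6%. Rpl26, whose protein also binds p53 mRNA, was at 155, 198 and 203 CPM in controls 3, 4 and 2, and at 312 to 421 CPM in the other 4, with 348 to 406 CPM in cKO. Controls 6 and 7 were the lowest in Rpl29 although control 6 was the highest in 29 of the 75 genes.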
